A study of Rattus norvegicus with 9 samples.

Results

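The genes described here are Gfap, Vim, Lcn2, Serpina3n, Cd44, Osmr, Steap4, S100a10, Emp1 and Cd109, 10 markers of reactive astrocytes among the 34092 genes of a table of rat primary hippocampal neuronal cultures. They were taken from the table by symbol, and they were chosen by their measured FPKM, which had been seen to move in different directions across the vehicle, NPCT and PCT groups. Their levels and group differences are therefore given as a description, without a p-value. Aminoprocalcitonin (NPCT) is the peptide cut from the amino end of procalcitonin (PCT), and the comparison asked how the peptide and its parent act on the transcriptome of the cultured neurons. Cells were dissociated from wild-type fetal rat hippocampi on embryonic day 17 and grown without mitotic inhibitors. At 7 days in vitro they received vehicle (Control), 1 nM human NPCT or 1 nM human PCT for 24 h, with 3 libraries in each group. The methods speak of RNA from pooled biological triplicates while the labels number 3 samples per group, so the spread between libraries may be partly technical.

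Levels are FPKM, fragments scaled by gene length and by a factor for each library, and the libraries held 13573056 to 17211642 fragments on genes. Of the 10 genes, 9 passed the filter of a mean of at least 0.5 FPKM over the 9 libraries, and Serpina3n did not. Differences are in log2(FPKM + 0.1) with the standard error (SE) of a limma fit to all 9 libraries, and a call needed a fold above 1.5 together with an adjusted p no higher than 0.05. Within their groups, replicate 3 of PCT and replicate 3 of NPCT differed most from their partners. Chi-square over degrees of freedom, computed on the fragments of a library pair, was 23.0 and 20.2 for pairs with PCT replicate 3 against 6.70 for the other pair, and 11.3 and 11.4 against 4.58 with NPCT replicate 3. It was 4.34 to 5.21 in Control.

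Astrocytes are glia that clear glutamate, buffer potassium and supply neurons with metabolites. After injury, infection or cytokine exposure they become reactive, a state marked by more of the intermediate filaments GFAP and vimentin and by secreted acute-phase proteins such as lipocalin 2. Widely used gene panels divide these genes into pan-reactive genes, A1 genes first described after endotoxin, and A2 genes first described after ischemia. Of the 10 genes, 7 are pan-reactive (Gfap, Vim, Lcn2, Serpina3n, Cd44, Osmr and Steap4) and 3 belong to the A2 panel (S100a10, Emp1 and Cd109).

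The label names neurons, and the neuronal markers were present, with 14 of them summing to 3198 to 3344 FPKM in Control. Astrocyte transcripts were abundant as well. The 20 genes of resting, homeostatic astrocytes summed to 4785 to 5021 FPKM in Control, and Gfap, Vim and Lcn2 ranked 38, 33 and 22 among all genes by their mean Control level. In RNA from a whole culture, fewer cells of a type and less RNA per cell cannot be told apart.

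With PCT, the markers split. Lcn2 and Steap4 were far lower than in Control, Cd44, S100a10 and Emp1 were higher by 1.89-fold to 2.32-fold, Gfap and Osmr were higher by less than 1.5-fold, and Vim and Cd109 overlapped Control. With NPCT, Osmr was the one tested member whose 3 libraries all lay outside the Control range, below it. The plot of levels by library shows these patterns gene by gene.

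**Figure D1:**
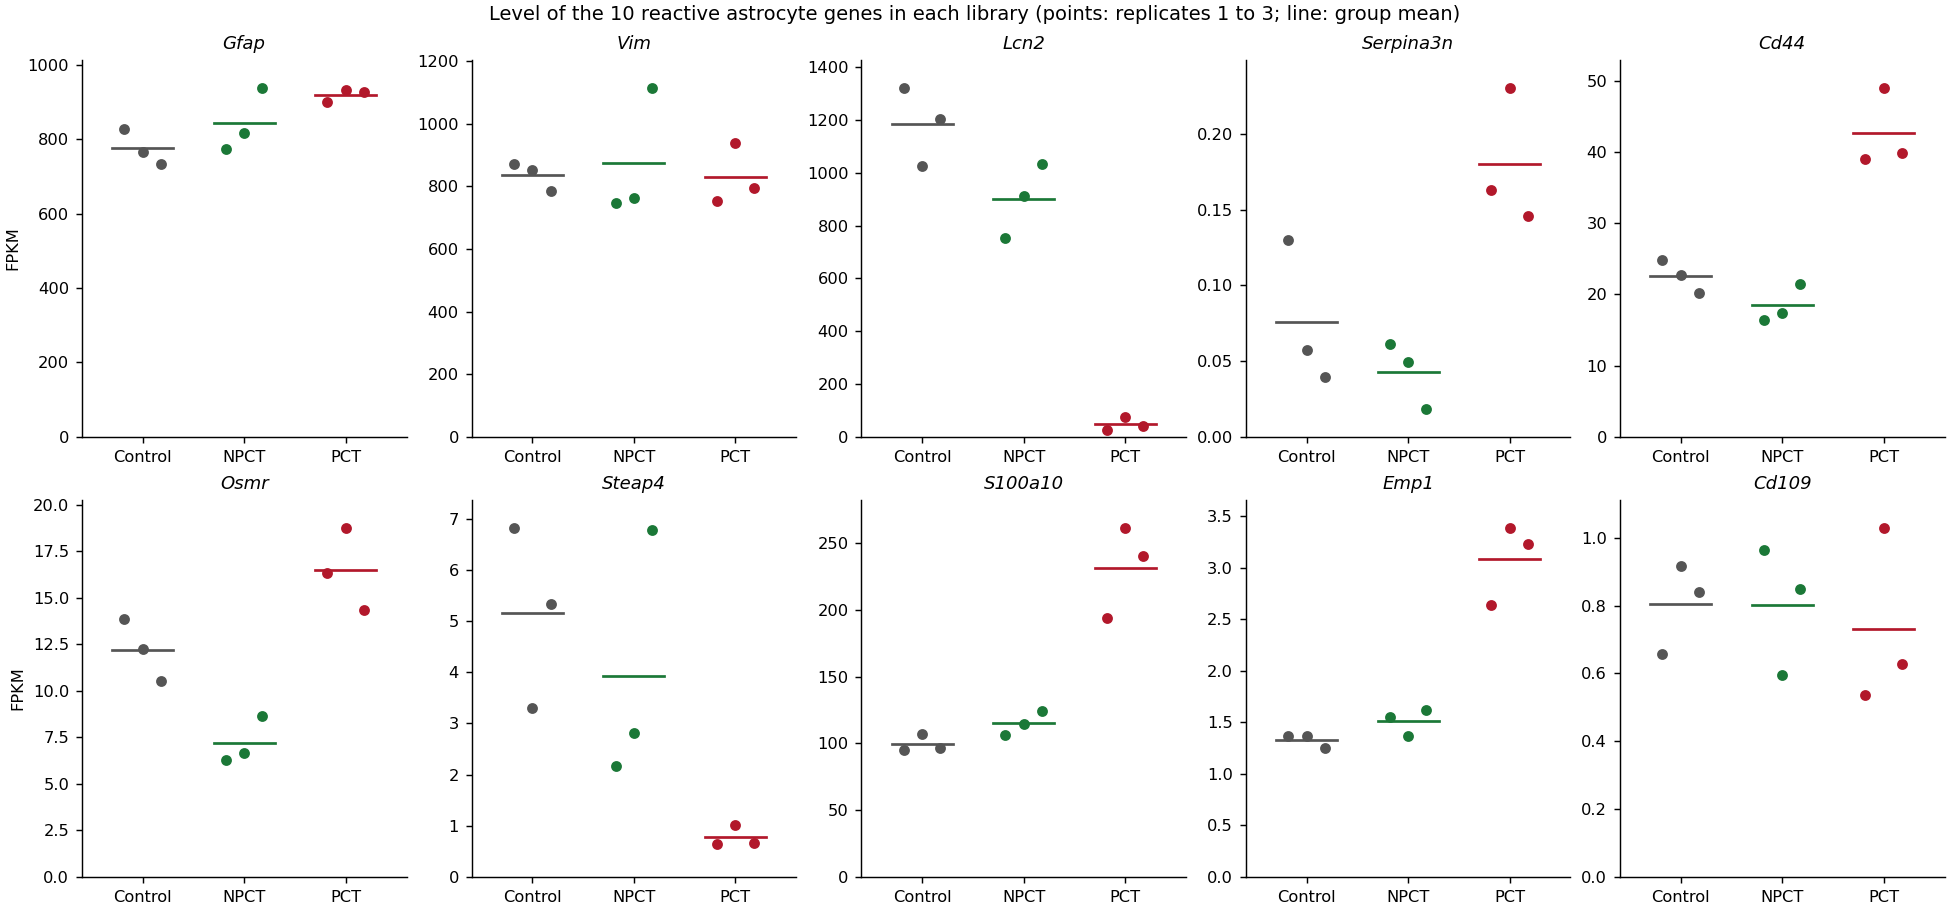
FPKM of each of the 10 genes (linear axes from 0, a scale per gene) in the Control, NPCT and PCT libraries; points are replicates 1 to 3 from left to right and the line is the group mean. Lcn2 lies between 27.6 and 74.9 FPKM in PCT against 1025 to 1321 in Control, while S100a10 lies between 194 and 261 against 95.4 to 107.

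Lcn2 encodes lipocalin 2, a secreted protein that binds iron-carrying siderophores and is a strong marker of reactive astrocytes. On Rnor_6.0 it lies at chr3:11414186-11417546 on the minus strand. Its level was 1321, 1025 and 1205 FPKM in Control, 753, 912 and 1032 in NPCT and 27.6, 74.9 and 41.0 in PCT. All PCT libraries lay far below every other library, and NPCT overlapped Control through its highest library. The mean was 1184 ± 149 FPKM (SD, n = 3) in Control, 899 ± 140 in NPCT and 47.8 ± 24.4 in PCT, so that the PCT mean was 24.7-fold lower than the Control mean and the NPCT mean 18.8-fold higher than the PCT mean. The log2 difference was -4.74 (SE 0.30) for PCT and -0.40 (SE 0.30) for NPCT against Control. By mean level it stood at rank 22 of all genes in Control, 31 in NPCT and 1847 in PCT. Even there it was well sampled, with 364 to 947 fragments per library against 13585 to 18012 in Control.

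Steap4 encodes a metalloreductase of endosomes and the plasma membrane that reduces iron and copper. It lies at chr4:23090029-23135354 on the minus strand. Its level was 6.82, 3.30 and 5.33 FPKM in Control, 2.17, 2.81 and 6.79 in NPCT and 0.635, 1.02 and 0.671 in PCT. The PCT libraries were again below all others, and the NPCT libraries spanned most of the Control range and reached below it. The PCT mean of 0.774 ± 0.210 was 6.65-fold below the Control mean of 5.15 ± 1.77, a log2 difference of -2.55 (SE 0.42). With a pseudocount of 1 in place of 0.1 the log2 difference was -1.76 from Control and 1.37 for NPCT against PCT. Steap4 was the most variable of the 9 tested genes, with a within-group SD of 0.60 on the log2 scale, and Lcn2 followed with 0.45. The call of Steap4 in PCT against Control was lost without Control replicate 1 or Control replicate 3. In NPCT, replicate 3 carried much of the level, and the log2 difference from Control was -0.50 (SE 0.42) with it and -0.97 without it.

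Promoters are shown for Lcn2 and Steap4, the pair furthest below Control with PCT, as 300 bases from 250 before to 50 after the start of the RefSeq gene on GRCr8, a different build from that of the expression table. Lcn2 is at chr3:36081731-36082030 and Steap4 at chr4:27054720-27055019, both on the minus strand and printed 5′ to 3′. Capitals mark matches to the binding consensus of NF-kB (the kB consensus) and to the STAT motif TTCNNNGAA, searched on both strands.
Lcn2: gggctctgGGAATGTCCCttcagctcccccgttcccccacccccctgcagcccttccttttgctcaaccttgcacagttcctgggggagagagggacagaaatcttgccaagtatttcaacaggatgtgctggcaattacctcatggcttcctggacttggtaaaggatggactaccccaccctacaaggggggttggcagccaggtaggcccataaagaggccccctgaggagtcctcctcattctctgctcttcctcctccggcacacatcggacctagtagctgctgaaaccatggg
Steap4: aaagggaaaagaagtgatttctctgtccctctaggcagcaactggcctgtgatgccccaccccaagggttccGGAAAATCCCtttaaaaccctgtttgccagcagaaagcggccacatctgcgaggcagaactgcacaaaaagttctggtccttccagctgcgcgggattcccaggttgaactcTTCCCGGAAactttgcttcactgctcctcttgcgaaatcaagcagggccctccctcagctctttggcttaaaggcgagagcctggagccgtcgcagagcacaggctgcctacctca
The match in Lcn2 starts 242 bases before the gene start, and those in Steap4 start 178 bases (kB consensus) and 66 bases (STAT) before it. The kB consensus occurred in 4.18% of 33469 rat promoters and in 3 of the 8 members with a promoter sequence (Vim, Lcn2 and Steap4). A match is a string of letters in this window and not a measured binding site.

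Among the 3 members called higher with PCT, S100a10 had the highest level. It encodes p11, the partner of annexin A2 at the plasma membrane, and lies at chr2:193892589-193901236 on the plus strand. Its level was 95.4, 107 and 96.7 FPKM in Control, 107, 114 and 124 in NPCT and 194, 261 and 240.2 in PCT. Each PCT library was above every other library, and NPCT overlapped Control. The PCT mean of 232 ± 34.6 was 2.32-fold the Control mean of 99.7 ± 6.40, a log2 difference of 1.21 (SE 0.11), and NPCT differed from Control by 0.21 (SE 0.11). Anxa2, which encodes annexin A2, was not called (log2 difference 0.31, SE 0.25, adjusted p = 0.569, limma). The ratio of S100a10 to Anxa2 FPKM accordingly moved from 4.66 to 6.23 in Control and 4.59 to 7.10 in NPCT to 9.15 to 10.6 in PCT.

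Cd44 encodes the main cell-surface receptor for hyaluronan, and it lies at chr3:92696313-92783658 on the minus strand. Its level was 24.8, 22.7 and 20.2 FPKM in Control, 16.4, 17.4 and 21.5 in NPCT and 39.0, 49.0 and 39.8 in PCT. The PCT libraries were above all others, and NPCT overlapped the lower end of Control. The PCT mean of 42.6 ± 5.55 was 1.89-fold the Control mean of 22.6 ± 2.30, with log2 differences of 0.91 (SE 0.13) for PCT and -0.29 (SE 0.13) for NPCT. Of the 5 tested genes within 200 kb of Cd44, 2 were called with PCT, both lower. The glutamate transporter gene Slc1a2 had a log2 difference of -0.73 (SE 0.16, adjusted p = 0.0393, limma), and Pamr1 one of -1.09 (SE 0.25, adjusted p = 0.0469). These calls were made in 12 and 5 of the 19 alternative analyses, and both were lost when any 1 of the Control libraries was left out.

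Emp1 encodes an epithelial membrane protein of the PMP22 family and lies at chr4:169147243-169181966 on the plus strand. Its level was low, at 1.37, 1.36 and 1.26 FPKM in Control, 1.56, 1.37 and 1.62 in NPCT and 2.64, 3.39 and 3.23 in PCT, or 51 to 159 fragments per library. The PCT libraries again stood above all others. The PCT mean of 3.09 ± 0.391 was 2.32-fold the Control mean of 1.33 ± 0.0645, a log2 difference of 1.15 (SE 0.17). Of its relatives, Emp2 fell with PCT (-0.76, SE 0.17, adjusted p = 0.0405, limma), a call made in 9 of the 19 alternative analyses and lost without any 1 of the Control libraries, and Emp3 and Pmp22 were not called.

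Osmr was the member whose 3 groups were all apart from each other. It encodes the oncostatin M receptor, which pairs with the shared receptor chain encoded by Il6st to activate JAK kinases and STAT3, and lies at chr2:56110777-56151531 on the minus strand. Its level was 13.8, 12.3 and 10.5 FPKM in Control, 6.28, 6.67 and 8.64 in NPCT and 16.3, 18.7 and 14.4 in PCT. NPCT was lowest, PCT highest and Control between them. The NPCT mean of 7.19 ± 1.26 was 1.70-fold below the Control mean of 12.2 ± 1.64, and the PCT mean of 16.5 ± 2.20 was 1.35-fold above it. The log2 difference from Control was -0.76 (SE 0.15) for NPCT and 0.43 (SE 0.15) for PCT, and neither was called, although the NPCT difference was called in 7 of 19 alternative analyses.

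The promoters of Osmr and Emp1 are shown because their windows hold the AP-1 motif TGANTCA. Against Control, limma called Emp1 higher with PCT and did not call Osmr with either peptide. Between the peptides, both were called lower with NPCT than with PCT. Osmr is at chr2:57688512-57688811 on the minus strand and Emp1 at chr4:169943980-169944279 on the plus strand of GRCr8, printed 5′ to 3′ with matches to the AP-1 and STAT motifs in capitals.
Osmr: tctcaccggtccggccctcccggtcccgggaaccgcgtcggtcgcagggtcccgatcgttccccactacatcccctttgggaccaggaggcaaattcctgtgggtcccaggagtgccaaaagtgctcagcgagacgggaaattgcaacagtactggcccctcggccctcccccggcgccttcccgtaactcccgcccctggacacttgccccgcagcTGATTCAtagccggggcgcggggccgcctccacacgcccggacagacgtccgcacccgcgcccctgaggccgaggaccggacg
Emp1: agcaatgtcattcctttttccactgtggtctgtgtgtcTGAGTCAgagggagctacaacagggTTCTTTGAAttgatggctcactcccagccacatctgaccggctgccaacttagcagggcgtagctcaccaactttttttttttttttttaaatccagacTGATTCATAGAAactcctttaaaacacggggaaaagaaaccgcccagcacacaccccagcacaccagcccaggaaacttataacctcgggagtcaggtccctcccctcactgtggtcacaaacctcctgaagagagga
The AP-1 match of Osmr starts 33 bases before the gene start. In Emp1, AP-1 matches start 212 and 88 bases before it and STAT matches 187 and 85 bases before it, the last of each overlapping in a single run of capitals. AP-1 occurred in 7.33% of all promoters and in 2 of the 8 members, and STAT in 8.87% of all promoters and in 3 of the 8 members (Serpina3n, Steap4 and Emp1). The windows of Gfap and Cd44 held none of the 3 motifs, and the promoters of S100a10 and Cd109 are not shown.

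Gfap and Vim, the classical intermediate filament markers, changed little. Gfap, at chr10:90990762-90999506 on the minus strand, was at 828, 765 and 734 FPKM in Control, 773, 818 and 938 in NPCT and 899, 931 and 926 in PCT. All PCT libraries lay above all Control libraries, while NPCT overlapped both. The mean was 776 ± 48.1 in Control, 843 ± 85.3 in NPCT and 919 ± 17.2 in PCT, with log2 differences from Control of 0.25 (SE 0.083) for PCT and 0.12 (SE 0.083) for NPCT. Vim, at chr17:80882666-80891212 on the plus strand, was at 871, 854 and 784 FPKM in Control, 746, 762 and 1114 in NPCT and 754, 939 and 794 in PCT. The groups of Vim overlapped in every comparison. NPCT replicate 3 had the highest level of all libraries for both genes, and without it the log2 difference of NPCT from Control was -0.15 in place of 0.04 for Vim and 0.04 in place of 0.12 for Gfap.

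The ratio of Lcn2 to Gfap FPKM set the secreted marker against the filament marker within each library. It was 1.34 to 1.64 in Control, 0.974 to 1.12 in NPCT and 0.0307 to 0.0805 in PCT. The ranges of the 3 groups did not overlap, although NPCT overlapped Control in Lcn2 and in Gfap alone. The ratio was formed from members chosen by their values, and NPCT and Control were apart in 40.3% of all single genes tested, so nothing is read from the gap between them.

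Of the other filament genes, Nes and Synm passed the call threshold with PCT. Nes, which encodes the filament nestin of progenitors and reactive astrocytes, reached at most 6.10 FPKM in Control, and its lowest library was at 8.06 in NPCT and 8.67 in PCT. It rose with PCT (log2 difference 0.83, SE 0.19, adjusted p = 0.0498, limma), close to the threshold and called in 8 of the 19 alternative analyses, in none of those that left out a Control library, and its NPCT difference was similar in size (0.72, SE 0.19, adjusted p = 0.0629) and not called by limma. That difference was called in 4 of the 19 alternative analyses, limma-voom among them. Synm, which encodes synemin, a filament protein that assembles with vimentin, fell with PCT (-0.81, SE 0.10, adjusted p = 0.00384) and was called in all 19. Of the 10 filament and linker genes tested, these were the only ones called by limma in PCT against Control, where 4 had an unadjusted p under 0.05. In NPCT against Control limma called none and limma-voom called 1, Nes, and 4 had an unadjusted p under 0.05, as did 29.3% of all genes.

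Serpina3n and Cd109 were at the lower end of detection. Serpina3n, which encodes a secreted inhibitor of serine proteases and is a leading reactive astrocyte marker in mice, had 14, 6 and 4 fragments in Control, 6, 5 and 2 in NPCT and 17, 23 and 18 in PCT. The PCT counts were all above the others, at 0.146 to 0.230 FPKM against 0.0393 to 0.130 in Control, and at this depth the gene was not tested. It spans 139364 bases in the annotation used (chr6:127941526-128080889) and overlaps Serpina3c on the opposite strand, which was at or near 0. Cd109, which encodes a membrane protein that binds transforming growth factor beta, was at 0.656 to 0.917 FPKM in Control, 0.595 to 0.964 in NPCT and 0.537 to 1.03 in PCT, and its groups overlapped in every comparison.

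Of the 9 tested members, 5 passed the call threshold in PCT against Control, 3 higher (Cd44, S100a10 and Emp1) and 2 lower (Lcn2 and Steap4). Over all 15958 genes tested, 2.31% were called in that comparison, 0.589% higher and 1.72% lower. With NPCT against Control 0 of 9 were called by limma, where 0.219% of all genes were (0.15% higher and 0.0689% lower). At an unadjusted p under 0.05 there were 2 of the 9 members and 4671 of all genes (29.3%), and limma-voom called 1 member, Osmr. Between the peptides at the same dose and time, 6 of 9 were called against 5.76% of all genes (4.38% higher and 1.38% lower with NPCT). Lcn2 and Steap4 were higher with NPCT than with PCT, and Cd44, Osmr, S100a10 and Emp1 were lower. The Steap4 call between the peptides was lost without PCT replicate 1, which left 5 members called. Since these contrasts served to choose the genes, nothing is read from the excess over the background. The comparisons share groups of libraries, so their values stand side by side and are not independent.

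The groups of 3 libraries did not overlap in 7 of the 9 members for PCT against Control, 5 higher and 2 lower, where 24.9% of all tested genes were apart (13.1% higher and 11.9% lower). For NPCT against Control it was 1 member, Osmr, against 40.3% of all genes (20% higher and 20.3% lower). For NPCT against PCT it was 6 members, 2 higher and 4 lower, against 33.4% (15.4% higher and 18% lower). The median log2 difference of the 9 members was 0.25 for PCT and -0.01 for NPCT against Control, beside 0.00459 and 0.00616 over all genes tested, and the members ran from -4.74 to 1.21 with PCT and from -0.76 to 0.21 with NPCT.

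**Figure D2:**
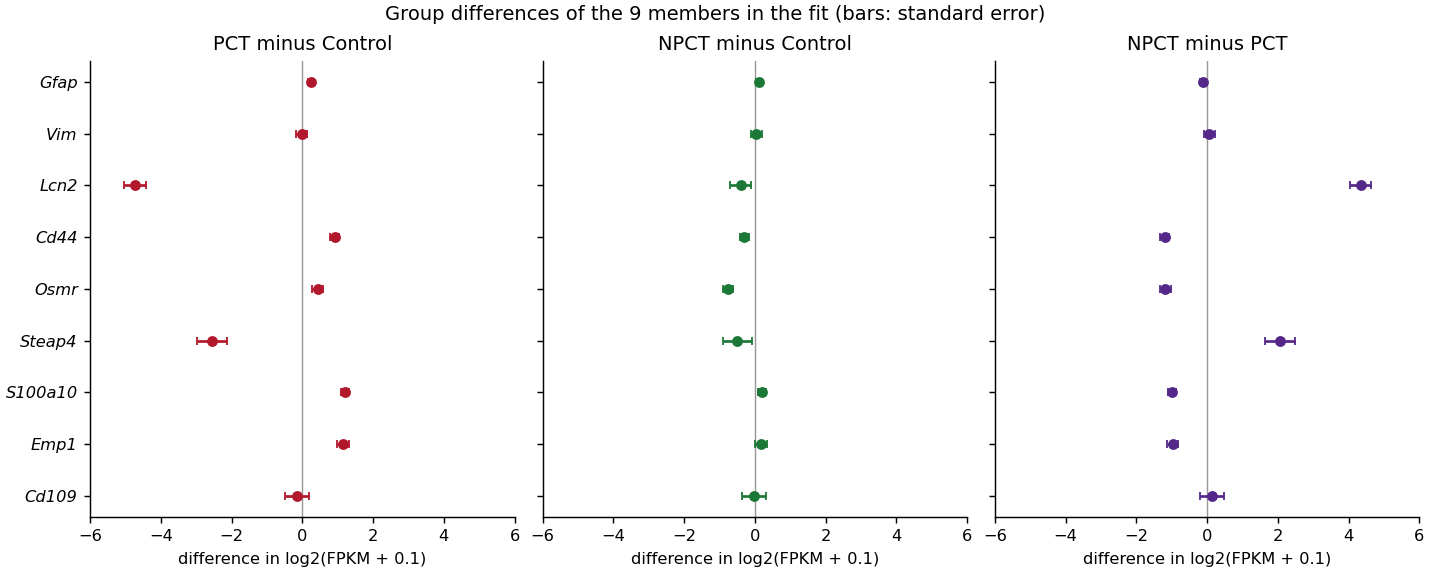
Difference between groups in log2(FPKM + 0.1) for the 9 members that passed the filter on low values, in PCT minus Control, NPCT minus Control and NPCT minus PCT; bars are the standard error of the fit. Lcn2 and Steap4 lie at -4.74 and -2.55 in PCT minus Control and at 4.34 and 2.06 in NPCT minus PCT, and the NPCT minus Control values stay between -0.76 and 0.21.

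NPCT is a fragment of PCT that lacks the remainder of its parent chain, and the peptides were given at the same dose for the same time. The difference of NPCT from PCT in log2 was 4.34 (SE 0.30) for Lcn2 and 2.06 (SE 0.42) for Steap4. It was -1.20 (SE 0.13) for Cd44, -1.19 (SE 0.15) for Osmr and -0.98 (SE 0.17) for Emp1. The S100a10 mean was 2.01-fold lower with NPCT than with PCT. These 6 genes had no library of NPCT within the range of PCT. Gfap (-0.13, SE 0.083), Vim (0.06, SE 0.15) and Cd109 (0.14, SE 0.34) overlapped between the peptides.

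The genes whose profile over the 9 libraries was nearest to that of Lcn2 were Serping1, C3 and Chi3l1, with a root mean square difference of 0.18, 0.43 and 0.49 log2 units from Lcn2 among 13088 genes with a symbol. Serping1 encodes the C1 inhibitor of complement, C3 the central complement protein and Chi3l1 a secreted chitinase-like protein of astrocytes and macrophages. Serping1 was at 209 ± 30.6 FPKM in Control, 178 ± 56.2 in NPCT and 7.64 ± 2.59 in PCT. C3 was at 89.9 ± 12.3, 107 ± 62.0 and 5.29 ± 1.44, and Chi3l1 at 161 ± 26.1, 158 ± 47.1 and 13.0 ± 4.23. All 3 were low in the PCT libraries, as the search for likeness to Lcn2 selects. The genes nearest to Gfap were Cnn3, Ciao1 and Nars (0.042 to 0.047), and those nearest to Vim were Rhog, Cln8 and Wrap53 (0.057 to 0.078), all of which varied little between groups.

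**Figure D3:**
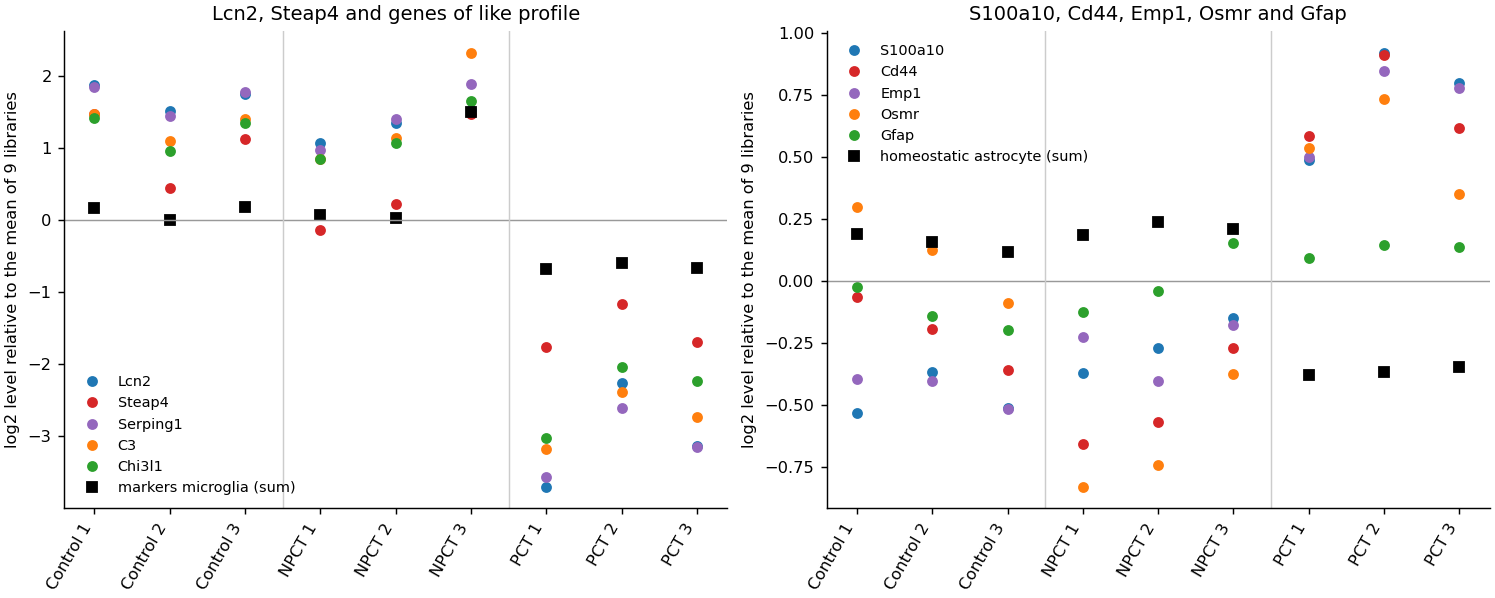
Log2 level of single genes (circles), and of the summed FPKM of 14 microglial markers or 20 homeostatic astrocyte genes (black squares), relative to the mean of the 9 libraries, for each library in order of group and replicate. In the left panel Lcn2, Steap4, Serping1, C3 and Chi3l1 lie below 0 in all PCT libraries and the microglial sum is highest in NPCT replicate 3; in the right panel S100a10, Cd44, Emp1, Osmr and Gfap lie above 0 in the PCT libraries while the homeostatic sum lies below 0.

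Some markers of microglia, the resident macrophages of the brain, were called lower with PCT, as were Lcn2 and Steap4. In NPCT against Control, 13 of the 14 markers had a positive log2 difference (median 0.47), and limma called none. Lcn2 and Steap4 had negative differences there (-0.40 and -0.50), also not called. With PCT all 14 had a negative log2 difference (median -1.51), and 8 had an unadjusted p under 0.05. Of the 14, 6 were called lower, among them Cx3cr1 (log2 difference -2.57, SE 0.33, adjusted p = 0.00402, limma) and Fcer1g (-2.25, SE 0.36, adjusted p = 0.0114), and none higher. Leaving out single libraries moved the count of calls between 1 and 7. It was 1 without Control replicate 1 or Control replicate 3, 2 without PCT replicate 2, and 3 without Control replicate 2 or PCT replicate 3. Cx3cr1 kept the call in all 19 alternative analyses, and Fcer1g lost it without Control replicate 1 or Control replicate 3. Their summed level was 83.6 to 94.4 FPKM in Control, 84.9 to 236 in NPCT and 52.3 to 55.0 in PCT, and no marker was at 0 throughout. The NPCT value of 236 was that of replicate 3, in which Lcn2 (1032 FPKM) and Steap4 (6.79) were the highest of the NPCT group. In the other NPCT libraries the sum was 84.9 and 88.0, within the Control range. The part of microglia in the Lcn2 and Steap4 levels was not tested.

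Markers of other cell types were counted in the same way. Of 12 fibroblast markers Col3a1 rose and Loxl1 fell with PCT, of which Loxl1 was called in all 19 alternative analyses and Col3a1 in 8, with sums of 117 to 124 FPKM in Control, 112 to 121 in NPCT and 101 to 122 in PCT. The Col3a1 call was lost with the replicate block and without any 1 of the Control or NPCT libraries. It was also lost without PCT replicate 2 or 3. At an unadjusted p under 0.05 there were 4 of the 12 with PCT. With NPCT limma called none of the 12, and 3 had an unadjusted p under 0.05. Among these the fibronectin gene Fn1 (-0.66, SE 0.13, adjusted p = 0.0509) was called lower in 7 of the 19 alternative analyses, limma-voom among them. Endothelial markers summed to 1.46 to 2.27 FPKM over all libraries, with Cldn5 at 0. None of the 11 oligodendrocyte lineage, 14 neuronal or 10 proliferation markers was called by limma or limma-voom in either comparison with Control, although 4, 4 and 1 of them had an unadjusted p under 0.05 with PCT and 5, 7 and 6 with NPCT. Over all genes tested these shares were 18.9% with PCT and 29.3% with NPCT.

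The reactive panels hold 25 further genes, of which 21 were tested. With PCT limma called 3 higher and 4 lower, and 13 had an unadjusted p under 0.05. The metalloproteinase inhibitor Timp1 rose from 64.2 ± 6.60 to 142 ± 17.2 FPKM (log2 difference 1.14, SE 0.10, adjusted p = 0.000662, limma), and the chemokine Cxcl10 from 4.22 ± 1.36 to 14.7 ± 5.10 (1.78, SE 0.30, adjusted p = 0.0148). Serping1 fell by 4.80 on the log2 scale (SE 0.27, adjusted p = 0.000138), and Cp, which encodes the ferroxidase ceruloplasmin, fell from 70.9 ± 11.2 to 18.1 ± 5.01 FPKM (-1.99, SE 0.30, adjusted p = 0.00928). These 4 were called in all 19 alternative analyses.

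The remaining 3 calls were weaker. The pentraxin Ptx3 rose by 0.59 (SE 0.13, adjusted p = 0.0361, limma), and Fbln5 and Ugt1a1 fell by 0.73 and 1.03 (SE 0.16 and 0.22, adjusted p = 0.0367 and 0.0366). They kept the call in 8, 10 and 8 of the 19 alternative analyses. By panel, limma called 2 of 6 pan-reactive genes higher and 1 lower, 3 of 8 A1 genes lower and none higher, and 1 of 7 A2 genes higher and none lower. Limma-voom called 8 of the 21 genes with PCT, the further one being the A2 gene Sphk1 (log2 difference 0.71, SE 0.18, adjusted p = 0.0699 by limma). The difference between panels was not tested. With NPCT none of the 21 genes was called by limma or limma-voom, and 1, Timp1, had an unadjusted p under 0.05 (log2 difference -0.33, SE 0.10, adjusted p = 0.0761).

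**Figure D4:**
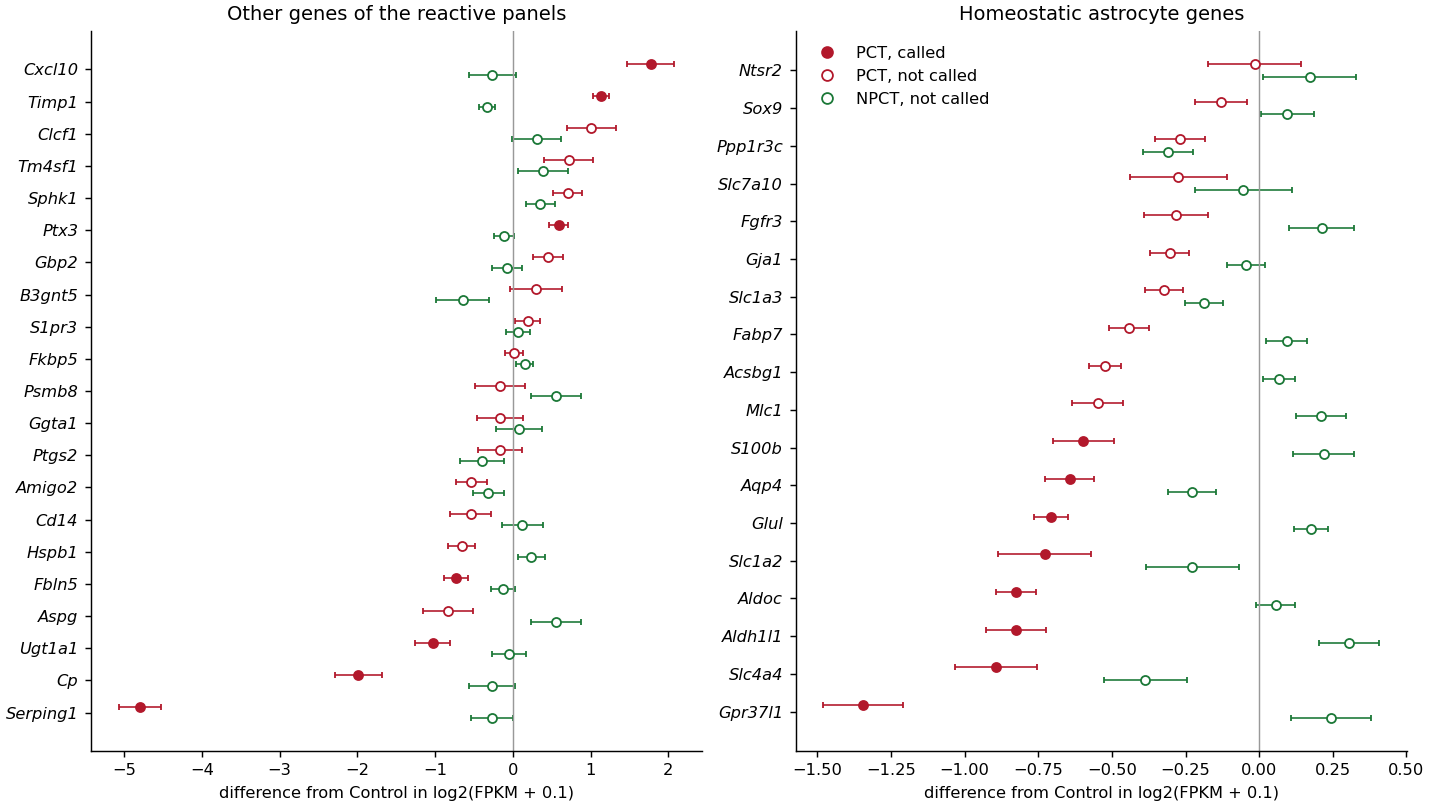
Difference from Control in log2(FPKM + 0.1) with its standard error, for PCT (red) and NPCT (green), in the 21 tested genes of the reactive panels other than the members (left) and 18 of the 19 tested homeostatic astrocyte genes (right), each sorted by the PCT value; filled points were called. Panel genes lie on both sides of 0 with PCT, from Serping1 at -4.80 to Cxcl10 at 1.78, and the 18 homeostatic genes shown lie below 0 with PCT.

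Of the 19 tested genes of homeostatic astrocytes, 9 were called lower with PCT and none higher, and Gfap was not called. The difference between these genes and Gfap was not tested. All 19 had a negative log2 difference, with a median of -0.55 beside 0.00459 over all genes, and 14 had an adjusted p of at most 0.05 without regard to fold. Glul, the glutamine synthetase gene, fell from 554 ± 17.4 to 340 ± 9.89 FPKM (-0.71, SE 0.057, adjusted p = 0.000535, limma), and Aldoc, a glycolytic enzyme gene, from 331 ± 4.52 to 187 ± 6.03 (-0.82, SE 0.067, adjusted p = 0.000536). The receptor gene Gpr37l1 fell by 1.34 (SE 0.13, adjusted p = 0.00136, limma). The water channel gene Aqp4 (-0.64) and Aldh1l1 (-0.83) also fell. The summed level was 4785 to 5021 FPKM in Control, 5016 to 5206 in NPCT and 3387 to 3466 in PCT. With NPCT none was called by limma or limma-voom, and 7 had an unadjusted p under 0.05.

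Osm, the gene of oncostatin M, which is the ligand that binds the Osmr product, was too low to test, at most 0.207 FPKM in any library. Other cytokines act through the same shared chain, encoded by Il6st, with receptors of their own. Of these, the interleukin 6 gene Il6 was too low to test, at most 0.491 FPKM. Lif, the gene of leukemia inhibitory factor, was at 0.995 to 1.44 FPKM in Control, 1.00 to 1.54 in NPCT and 2.42 to 4.35 in PCT, and rose with PCT (1.39, SE 0.27, adjusted p = 0.0256, limma). Cntf, the ciliary neurotrophic factor gene, was not called.

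Of the receptors and signal carriers, Il11ra1 fell with PCT (-0.62, SE 0.11, adjusted p = 0.0156, limma), and the other receptor genes were not called. Il6st was at 35.0 to 39.3 FPKM in Control, 30.3 to 36.3 in NPCT and 31.5 to 42.3 in PCT. Stat3 (0.39, SE 0.11, adjusted p = 0.0774) and its feedback target Socs3 (1.01, SE 0.29, adjusted p = 0.0904) did not pass with PCT. Socs3 was called in 2 of the 19 alternative analyses, the replicate block and without PCT replicate 1, and Stat3 in none. Thus limma called 1 of 18 genes of this pathway higher and 1 lower with PCT. Each of these calls was lost when any 1 of the Control libraries was left out. With PCT 8 of the 18 had an unadjusted p under 0.05, as did 18.9% of all genes. Of the 18 log2 differences with PCT, 9 were positive and 9 negative. With NPCT none was called by limma or limma-voom, and 4 had an unadjusted p under 0.05, among them Jak2, the gene of an OSMR-associated kinase (-0.39, SE 0.072, adjusted p = 0.0509), and Jak1.

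**Figure D5:**
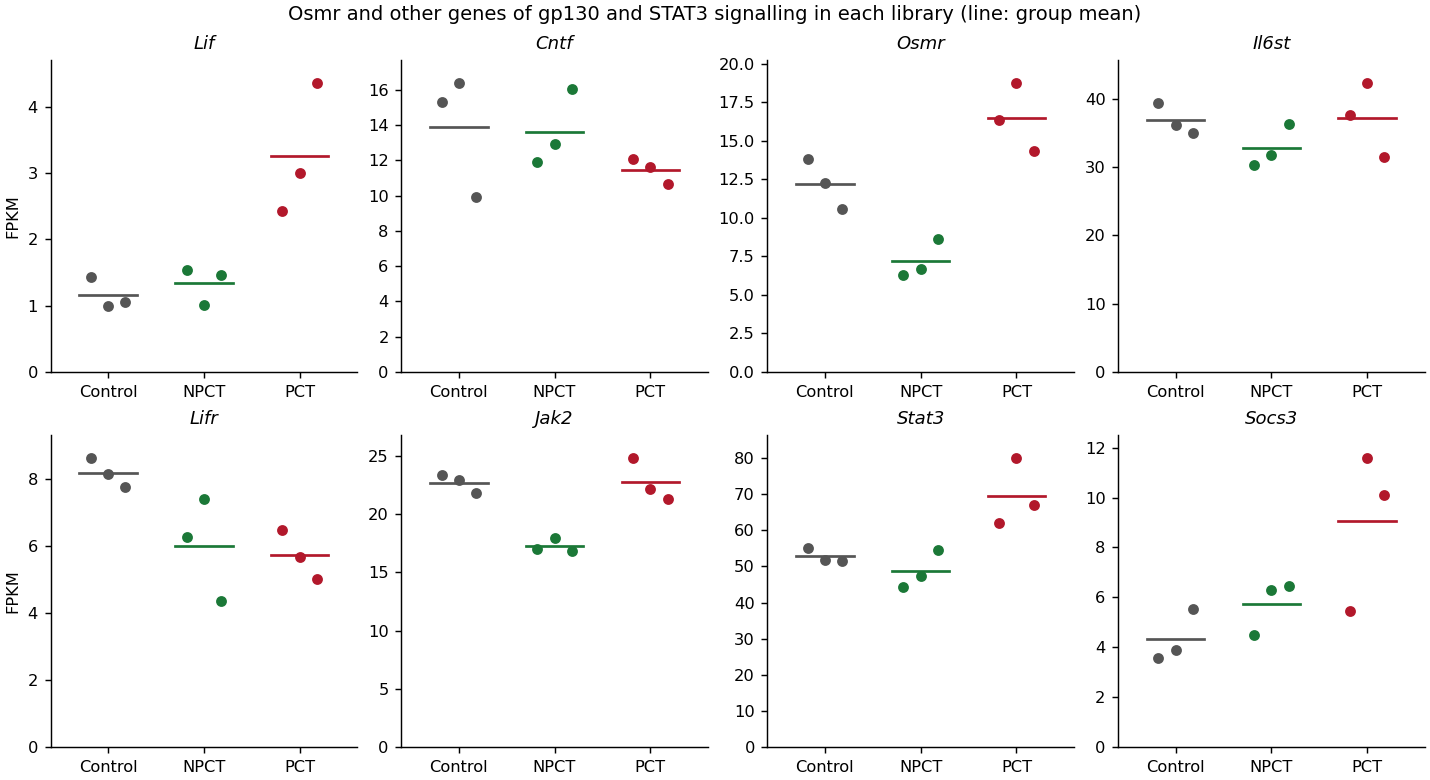
FPKM (linear axes from 0) of Osmr and 7 other genes of the pathway around the shared chain Il6st in the 9 libraries; points are replicates and lines group means. Osmr is lowest in NPCT (6.28 to 8.64) and highest in PCT (14.4 to 18.7), Lif is highest in PCT (2.42 to 4.35), and Il6st overlaps between all groups.

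Of 14 genes of known inducers of the reactive state and their signalling, 11 were tested. Ifng was at 0 in every library, and Tnf and Il1a were too low to test. Nfkbia, the NF-kB inhibitor gene that NF-kB itself activates, rose with PCT (0.72, SE 0.16, adjusted p = 0.0411, limma), from 17.0 to 21.0 FPKM in Control to 25.5 to 38.4, and was called in 9 of the 19 alternative analyses. The Nfkbia call was lost when any 1 of the Control libraries was left out. It was also lost without NPCT replicate 1 or 2, or PCT replicate 2 or 3. It was the only call among the 11 tested inducer genes in that comparison. There 5 of the 11 had an unadjusted p under 0.05, as did 18.9% of all genes. None was called with NPCT by limma or limma-voom, where C1qa alone had an unadjusted p under 0.05 (1.67, SE 0.51, adjusted p = 0.0799). The C1qa level was 3.78 to 5.16 FPKM in Control and 9.69, 8.78 and 38.2 in NPCT, highest in replicate 3, the library with the highest sum of microglial markers, a list that holds C1qa. The Lcn2 receptor gene Slc22a17 was not called with either peptide (-0.14, SE 0.086 for PCT and 0.40, SE 0.086, adjusted p = 0.0519 for NPCT).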

How the data were processed

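Rat primary hippocampal neuronal cultures were sequenced as 9 poly-T selected libraries, 3 per group, grouped by the treatment label. The authors aligned reads with HISAT2 2.0.5, counted fragments per gene with featureCounts 1.5.0-p3 and deposited FPKM. The submitters' processing notes name Rnor_6.0, and they also list CASAVA, StringTie 1.3.3b and DESeq2 1.20.0. Products of FPKM and gene length fell on multiples of 1 step per library (tolerance 0.05) for 100% of values, from which fragments per gene were recovered. Median-ratio scaling factors were all 1, so the deposited FPKM were already on that scale.

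limma 3.58.1 (R 4.3.3) fitted log2(FPKM + 0.1) with 1 mean per group, over genes with a mean of at least 0.5 FPKM. P-values were adjusted by Benjamini-Hochberg over all 15958 genes. A call needed a fold above 1.5 together with an adjusted p no higher than 0.05. The fit was also run on simulated counts in which every gene had the same built-in spread and no gene of low level was changed. That run does not measure the error of calls at the uneven spread of these libraries or at low levels. Calls on 3 libraries per group measure the spread between these libraries only.

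The members and all gene lists were chosen with earlier results of these data known. Besides the members, up to 4 called genes of smallest adjusted p were named per list and comparison, or the 2 of smallest unadjusted p where none was called. Genes that define a pathway step were also named, as were the 3 genes of most similar profile for Gfap, Lcn2 and Vim, and genes of 3 weaker panel calls. Members carry no p-value. Promoter sequences are from RefSeq (GRCr8), and 8 of the 10 members matched by symbol. Some genes of the lists were not analysed here, and 1 homeostatic gene that counts in its list is not reported by name. Alternatives changed the pseudocount (1, 0.01), the filter, the normalization, the fit, gene length, the replicate block and single libraries, 19 in all.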

Additional observations from a re-analysis of the deposited data

How the results depend on the processing

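Across 19 alternatives, 510 log2 differences of the 9 tested members were recomputed. Of these, 213 were identical by construction, since the alternative leaves the difference of group means as it is (the values as deposited, another filter, fit or block, or a library of the third group). Of the other 297, 287 moved by less than limma's moderated residual SD of the gene, 10 moved further and 0 called values changed sign. Lcn2, Cd44, S100a10 and Emp1 stayed called in PCT against Control in all 19, and Steap4 in 17. The alternative with the values as deposited repeats the main fit, because scaling left the values unchanged, so it could not alter a call. Osmr in NPCT against Control lay near the threshold. The count of members called there was 0 as reported and 1 with a fit of only the 2 groups compared, with limma-voom, with a mean FPKM of at least 1, with quantile normalization and with the replicate block, and 0 to 1 when single libraries were left out. It was 1 without PCT replicate 1 or PCT replicate 3. The other reactive panel genes called in PCT against Control, 7 as reported, were 4 with a fit of only the 2 groups and 4 with no filter, and 4 to 7 when single libraries were left out. They were 4 without any 1 of the Control libraries, without NPCT replicate 2 or without PCT replicate 3. The 2 calls of gp130 and STAT3 signalling with PCT became 1 with a pseudocount of 1, and 0 to 3 when single libraries were left out. They were 0 without any 1 of the Control libraries or without PCT replicate 2, and 1 without PCT replicate 3. The 9 homeostatic astrocyte genes called in PCT against Control were 6 to 9 when single libraries were left out. The members called in NPCT against PCT were 5 without PCT replicate 1 and 6 under every other alternative. The cause of these changes was not tested.

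Libraries that share a replicate number were not alike (residuals from the group means correlated at -0.0725 to 0.0344, with 0 of 9 pairs over 0.1), so replicate numbers were not treated as pairs. With the replicate block, members called stayed at 5 in PCT against Control and 6 in NPCT against PCT, and were 1 in NPCT against Control, where Nes, Fn1 and C1qa (adjusted p = 0.048, limma, with its highest level in NPCT replicate 3) also became called. In PCT against Control the block ended the calls of Emp2, Fbln5, Ugt1a1, Col3a1 and Pamr1. The other reactive panel genes called there became 5, and the gp130 and STAT3 genes called became 3, with Socs3 added. Low counts limit Serpina3n (2 to 23 fragments), Cd109 and Steap4 in PCT (32 to 49 fragments).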
